A study of Mus musculus with 16 samples.

Results

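T cell receptor variable segments are the gene pieces that encode most of the antigen-binding end of a T cell receptor chain. All rows annotated as T cell receptor variable genes were taken from the expression table, which gave 144 segments of 54532 genes. By symbol, 108 were alpha, 22 were beta, 7 were gamma and 5 were delta segments. B230359F08Rik and C920008G01Rik carried the same annotation with no chain in the symbol. Of the alpha segments, 10 have a symbol that marks them as also usable in delta chains. They were counted as alpha.

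A developing T cell joins 1 variable segment to a joining segment, and in beta and delta chains also to a diversity segment, ahead of a constant region. Alpha pairs with beta and gamma pairs with delta, so each T cell carries its own pair of segments and a mixture of segments reflects a mixture of cells. T cells that expand from a few founders share segments, while a mixed infiltrate uses many.

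RNA was sequenced in bulk from 16 end-stage subcutaneous tumours, 4 libraries in each of 4 groups. The tumours grew from B16F10 cells, a mouse melanoma line, implanted in C57BL/6J mice 8 weeks old and of both sexes. Treatment began 8 days after implantation. BdP cisplatin tumours came from BdP cells, a Pros1-deficient B16F10 derivative that another label calls a knockdown, in mice given cisplatin, a DNA-crosslinking platinum drug. BdP PBS tumours came from the same cells in mice given saline buffer (PBS). WT cisplatin tumours and WT PBS tumours came from wild-type B16F10 cells in mice under the same 2 regimens. Each cisplatin injection was 5 mg/kg, given once a day for 3 days, and the course was run 2 times. The labels give no modification of the hosts, from which the T cells of every tumour came. Pros1, a ligand of the TAM receptors, measured 1.24 to 2.52 FPKM in the 8 BdP libraries, against 4.79 to 11.5 FPKM in the 8 WT libraries. FPKM is the number of fragments per kilobase of gene, scaled for depth by the authors.

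Reads assigned to genes ranged from 10051843 to 27055771 per library. WT PBS 1 stood apart with 76.9% mitochondrial reads, which left 2322202 other reads, so that a single read in a segment of median length was worth 1.35 FPKM there. The next highest mitochondrial shares were 21.7% in WT cisplatin 4 and 12.2% in WT cisplatin 3. Melanoma markers summed to 4508 to 8507 FPKM in all libraries, and the T cell receptor complex (constant genes and CD3 genes, 12 genes) to 0.124 to 288 FPKM. Rag1, a recombinase gene of developing lymphocytes, was at 0 in all libraries.

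All 144 segments lay at the same position in the GENCODE M21 annotation of the mouse build GRCm38, on chromosomes 6 (beta), 13 (gamma) and 14 (alpha and delta). The 3′ ends of 7 variable exons are shown because these segments carry most of the results below. The capitals mark the last cysteine codon in frame, at which the highly variable junction of the rearranged receptor starts. Each line shows the last 60 bases of the exon, 5′ to 3′ on the coding strand.
Trbv13-2, chr6:41121773-41121832 (+): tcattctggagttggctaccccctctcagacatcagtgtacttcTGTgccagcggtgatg
Trbv19, chr6:41178989-41179048 (+): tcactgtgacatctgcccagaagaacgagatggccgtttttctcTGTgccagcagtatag
Trbv16, chr6:41152171-41152230 (+): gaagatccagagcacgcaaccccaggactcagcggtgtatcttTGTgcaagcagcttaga
Trbv12-2, chr6:41119305-41119364 (+): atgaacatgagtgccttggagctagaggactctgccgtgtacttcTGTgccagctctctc
Trbv2, chr6:41047936-41047995 (+): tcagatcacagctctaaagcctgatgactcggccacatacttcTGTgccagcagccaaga
Trgv2, chr13:19336573-19336632 (-): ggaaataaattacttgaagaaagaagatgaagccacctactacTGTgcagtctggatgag
Trdv4, chr14:54075456-54075515 (+): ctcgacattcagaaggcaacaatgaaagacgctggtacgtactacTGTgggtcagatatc
In these 7 segments 12 to 14 bases followed the cysteine codon. All 144 segments had such a codon in the last 23 bases. The deposited values count reads over the whole segment and do not resolve the junction. They report in which segment reads fell, and neither whether it was joined nor how many different receptors there were.

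Segments were detected unevenly among the chains. Over the 16 libraries, 3372 reads fell in variable segments, and 93 of the 144 segments had at least 1 read. The 22 beta segments took 1995 reads (59.2%) and 19 of them were detected. The 108 alpha segments took 997 reads (29.6%) and 62 of them were detected. All 7 gamma segments were detected, with 226 reads (6.70%), and 4 of the 5 delta segments, with 142 reads (4.21%). B230359F08Rik had 12 reads, all in BdP PBS 2, and C920008G01Rik had none. The dual alpha and delta segments contributed 149 of the alpha reads, with 7 of 10 detected. In all, 25 segments had reads in a single library.

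Summed segment levels varied widely within each group. The totals were 10.4, 53.2, 38.6 and 23.8 FPKM in BdP cisplatin libraries 1 to 4, and 32.6, 99.6, 4.02 and 11.5 FPKM in BdP PBS libraries 1 to 4. They were 1.63, 3.05, 25.5 and 5.25 FPKM in WT cisplatin libraries 1 to 4, and 2.59, 5.46, 34.9 and 0 FPKM in WT PBS libraries 1 to 4. The highest WT libraries, WT PBS 3 and WT cisplatin 3, lay among the BdP libraries, while BdP PBS 3 lay among the lower WT libraries. WT PBS 4 had no segment read at all, which allows up to 3 reads among its 21061264 non-mitochondrial reads. Its constant genes Trac, Trbc1 and Trbc2 were listed at 0 as well. The total of 2.59 FPKM in WT PBS 1 was 2 reads. In bulk RNA, fewer T cells and less receptor RNA per T cell cannot be told apart.

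**Figure D1:**
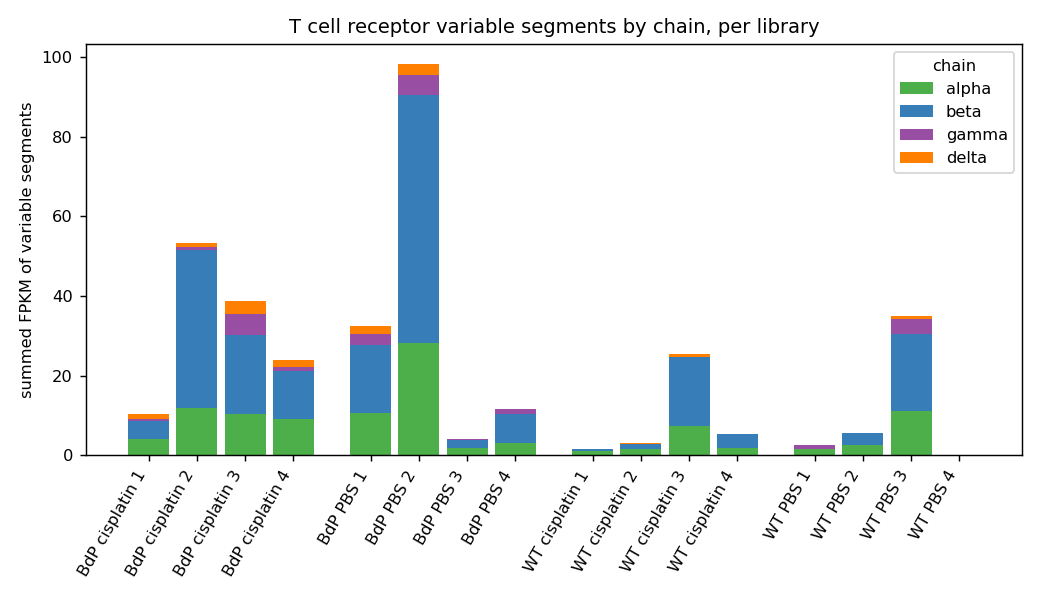
Summed FPKM of the variable segments in each of the 16 libraries (y axis), stacked by chain; segments with no chain in the symbol are left out. BdP PBS 2 was highest at 99.6 FPKM with all segments, and WT PBS 4 had none.

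Group totals are given as a description, since a sum over the segments has no test of its own here. On the log2(total FPKM + 1) scale, the mean of BdP cisplatin tumours minus that of WT cisplatin tumours was 2.11, with a pooled SD between libraries of 1.24. The difference of BdP PBS minus WT PBS tumours was 2.00 with a pooled SD of 2.01. The cisplatin minus PBS difference was 0.38 in BdP tumours (pooled SD 1.49) and 0.27 in WT tumours (pooled SD 1.83). Without WT PBS 3 the BdP PBS minus WT PBS difference was 2.91, and without WT PBS 4 it was 1.19. Without WT PBS 4 the WT cisplatin minus WT PBS difference was -0.54, and without WT PBS 3 it was 1.18. Without BdP PBS 3 the BdP cisplatin minus BdP PBS difference was -0.32, and without BdP PBS 2 it was 1.12. Other scalings moved 2 of the differences by over 1.5 times. As TPM, BdP PBS minus WT PBS was 3.18 and WT cisplatin minus WT PBS was 1.22.

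Each group served in 2 of these differences, which therefore share libraries. B cell markers (5 genes) moved with the segment totals in several libraries. They summed to 343, 406 and 84.3 FPKM in BdP cisplatin 2, BdP PBS 2 and WT cisplatin 3, against 1.62 FPKM in BdP cisplatin 1 and 0.991 FPKM in WT PBS 4. WT PBS 3, with 34.9 FPKM of variable segments, had only 8.50 FPKM of B cell markers. Follicular and lymph node stroma markers (3 genes matched) summed to 0.0232 to 6.94 FPKM in BdP cisplatin, 0.123 to 7.91 FPKM in BdP PBS, 0.00888 to 1.48 FPKM in WT cisplatin and 0 to 0.132 FPKM in WT PBS libraries. They were highest in BdP PBS 2 and BdP cisplatin 2, where Cr2 made up the whole sum and Madcam1 and Glycam1 were at 0. The sum there therefore reports Cr2 only. Of the 5 genes listed, Ccl21a and Ccl19 were not matched to a single row and were not measured. Stroma RNA was thus followed by Madcam1 and Glycam1 alone. In some other BdP libraries it was low, with 0.0232 FPKM in BdP cisplatin 1, 0.250 FPKM in BdP cisplatin 3 and 0.123 FPKM in BdP PBS 3. The part of other lymphocytes or lymphoid tissue in the segment totals was not tested.

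Libraries with more segment reads mostly had more segments detected. BdP cisplatin libraries had 24, 45, 36 and 35 detected segments, and BdP PBS libraries had 32, 51, 17 and 17. WT cisplatin libraries had 6, 9, 23 and 15, and WT PBS libraries had 2, 8, 49 and 0. The means were 35.0 ± 8.60 in BdP cisplatin, 29.3 ± 16.1 in BdP PBS, 13.3 ± 7.50 in WT cisplatin and 14.8 ± 23.1 in WT PBS tumours (SD, n = 4 each). Without WT PBS 3 the WT PBS mean was 3.33. Every BdP cisplatin library detected more segments than every WT cisplatin library, by a margin of 1 segment between BdP cisplatin 1 and WT cisplatin 3.

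To set detection at equal depth, the number of segments expected in 100 segment reads was computed for the 9 libraries with at least 100. It was 23.3, 31.6, 29.4 and 30.2 in the BdP cisplatin libraries, and 27.2, 35.0 and 16.6 in BdP PBS 1, 2 and 4. It was 21.2 in WT cisplatin 3 and 35.9 in WT PBS 3. The highest values at equal depth were those of WT PBS 3 and BdP PBS 2, and the lowest was that of BdP PBS 4. The other 7 libraries, 6 of them WT, had too few segment reads for this value, so diversity could not be compared between genotypes.

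**Figure D2:**
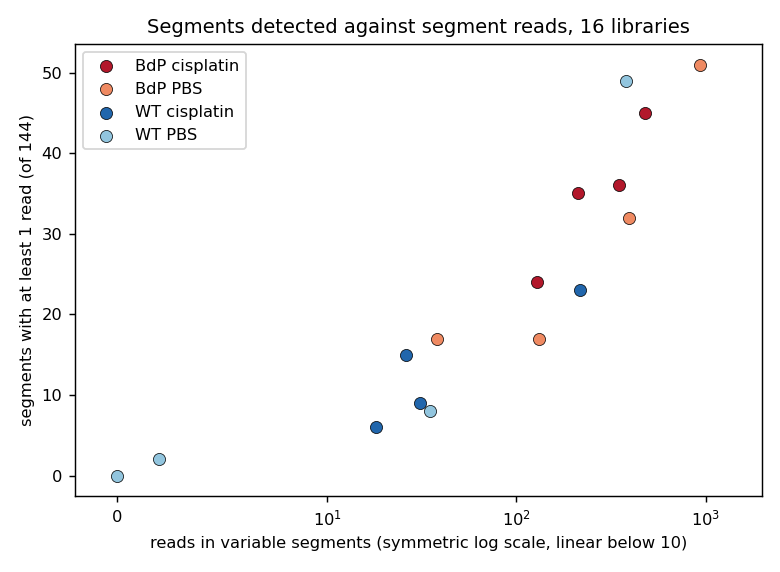
Number of variable segments with at least 1 read (y axis, of 144) against reads in variable segments (x axis, symmetric log scale) in 16 libraries coloured by group. Detection ran from 0 to 51 segments, with the lowest at 0 reads and the highest at 933 reads, and libraries with similar reads differed (15 segments at 26 reads and 9 at 31 reads in WT cisplatin).

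Summed over its 4 libraries, the BdP cisplatin group detected 70 segments in 1170 reads and the WT cisplatin group 33 in 291 reads. The BdP PBS group detected 65 segments in 1494 reads and the WT PBS group 50 in 417 reads. BdP cisplatin and WT cisplatin tumours shared 27 segments, which was 38.6% of the BdP cisplatin list and 81.8% of the WT cisplatin list. BdP PBS and WT PBS tumours shared 42, which was 64.6% of the BdP PBS list and 84.0% of the WT PBS list. The groups differed in reads, and the part of that in these shares was not tested.

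Beta segments were the most abundant chain in most libraries. Summed beta levels were 4.58, 39.8, 20.1 and 12.0 FPKM in BdP cisplatin and 17.2, 62.3, 2.13 and 7.36 FPKM in BdP PBS libraries. They were 0.624, 1.11, 17.4 and 3.33 FPKM in WT cisplatin and 0, 2.92, 19.3 and 0 FPKM in WT PBS libraries. Relative to the constant genes Trbc1 and Trbc2 summed, which encode the shared end of every beta chain, the variable sum was 0.207 to 0.672 in the 14 libraries with beta segment reads. Trbv13-2, a member of a family that invariant NKT cells often use, had the most reads of all segments. It took 248 reads (12.4% of beta reads) in 12 libraries. Of these, 44.8% came from BdP PBS 2.

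The leading beta segment changed from tumour to tumour. Among the 14 libraries with a beta read, 8 different segments led. Trbv19 led in 3 libraries, all WT cisplatin tumours (2, 3 and 4), with 8 of 13, 35 of 151 and 7 of 17 beta reads. Trbv16 led in BdP cisplatin 3 and 4, Trbv17 in BdP cisplatin 1 and BdP PBS 3, and Trbv13-2 in BdP cisplatin 2 and BdP PBS 2. Trbv20 led in BdP PBS 1, Trbv12-2 in BdP PBS 4 and Trbv2 in WT PBS 3. Trbv1 led in WT cisplatin 1 and WT PBS 2, with 6 and 5 reads.

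No beta segment dominated a well-covered library. In the 9 libraries with at least 50 beta reads, the leading segment held 13.5% to 29.9% of the summed beta FPKM (median 22.1%). The leading 3 together held 35.2% to 63.5% (median 46.5%). The highest share of FPKM was that of Trbv12-2 in BdP PBS 4, which had 24 of 82 beta reads (29.3% of reads, exact 95% binomial interval 19.7% to 40.4%). Trbv2 took 61 of 207 beta reads in WT PBS 3 (29.5% of reads and 22.1% of FPKM, interval 23.4% to 36.2%). The lowest leading share on either measure was that of Trbv13-2 in BdP cisplatin 2, with 42 of 360 reads (11.7%, interval 8.54% to 15.4%). These intervals cover counting error only, since PCR copies were not marked.

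**Figure D3:**
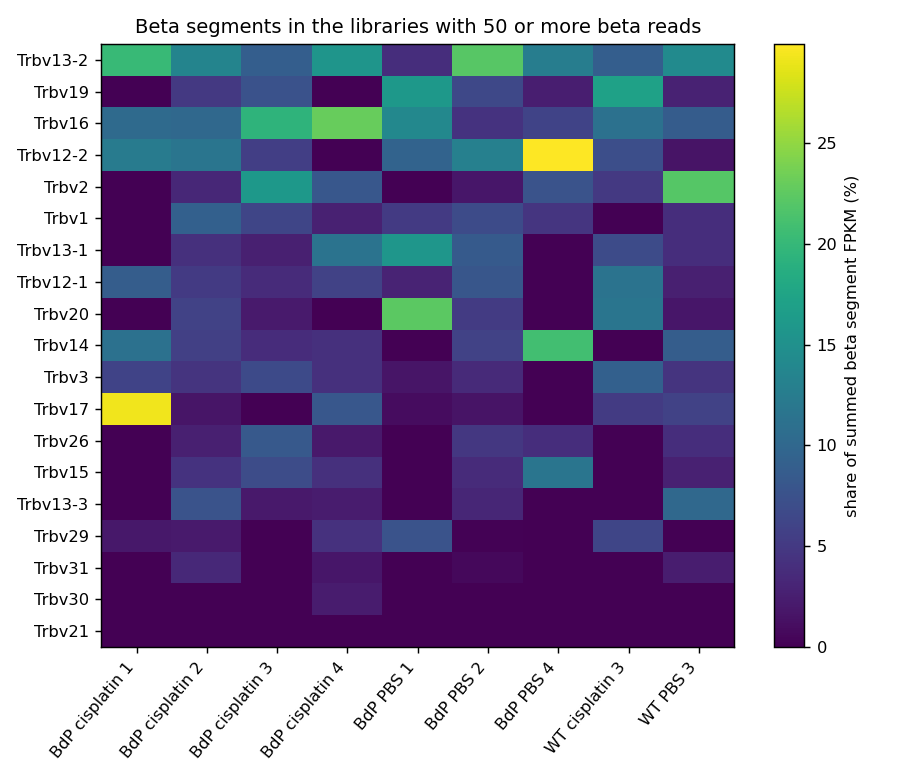
Share of summed beta segment FPKM (colour, %) held by each detected beta segment (rows, by total reads) in the 9 libraries with 50 or more beta reads (columns). The brightest cells are Trbv12-2 in BdP PBS 4 (29.9%) and Trbv17 in BdP cisplatin 1 (29.3%), and the bright row differs between columns.

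Single beta segments were present or absent irregularly. Trbv16 was the most widely detected, in 13 libraries, at 0.472, 4.03, 3.92 and 2.75 FPKM in BdP cisplatin and 2.41, 2.76, 0.302 and 0.444 FPKM in BdP PBS libraries. It measured 0, 0.205, 1.94 and 0.642 FPKM in WT cisplatin and 0, 0.153, 1.67 and 0 FPKM in WT PBS libraries. The groups overlapped for Trbv16 in all comparisons. Trbv2 measured 0, 1.32, 3.20 and 0.978 FPKM in BdP cisplatin libraries and 0, 0.436, 4.26 and 0 FPKM in WT PBS libraries, so that 1 WT library was the highest of all. Trbv19 measured 0, 1.99, 1.502 and 0 FPKM in BdP cisplatin, against 0, 0.577, 2.98 and 1.05 FPKM in WT cisplatin libraries. It measured 2.75, 4.02, 0 and 0.187 FPKM in BdP PBS and 0, 0, 0.553 and 0 FPKM in WT PBS libraries. Trbv4, Trbv5 and Trbv23 had no read. Exons of Trbv4 and Trbv5 overlap those of the non-coding gene 5830405F06Rik on the same strand.

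Alpha segments were many and thinly covered. Summed alpha levels were 4.12, 11.8, 10.3 and 9.22 FPKM in BdP cisplatin and 10.6, 28.2, 1.70 and 3.11 FPKM in BdP PBS libraries. They were 1.00, 1.66, 7.25 and 1.92 FPKM in WT cisplatin and 1.55, 2.54, 11.2 and 0 FPKM in WT PBS libraries. No alpha segment reached 1 FPKM in 4 libraries, so none entered the test across genes. The highest mean over the 16 libraries was 0.376 FPKM, for Trav14n-3. By reads, Trav7-4 was first with 59, of which 21 were in BdP cisplatin 4 and 23 in BdP PBS 1. It was followed by Trav14n-3 with 50 reads in 8 libraries, Trav10 with 44 in 5, Trav14-3 with 43 in 8 and Trav13-4-dv7 with 40 in 8. Of the Trav14n-3 reads 44.0% and of the Trav10 reads 47.7% came from BdP PBS 2.

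As with beta, the leading alpha segment changed from tumour to tumour, and some were prominent in 1 tumour. Trav14n-3 led in BdP PBS 2, WT cisplatin 2 and WT cisplatin 4. Trav13-1 led in BdP PBS 3, WT cisplatin 3 and WT PBS 1, with 4, 11 and 1 reads, and had no read in the BdP cisplatin group. Trav7-4 led in BdP cisplatin 4 and BdP PBS 1, Trav9d-1 in BdP cisplatin 1, Trav4-4-dv10 in BdP cisplatin 2, Trav6-7-dv9 in BdP PBS 4 and Trav13d-1 in WT cisplatin 1. Trav9n-3 had 21 of its 25 reads in WT PBS 3, where it led the alpha chain at 1.43 FPKM. All 10 reads of Trav4d-4 were in BdP cisplatin 3, where it also led. Trav13-4-dv7, a dual segment, had 13 of the 16 alpha reads of WT PBS 2 (81.3%, exact 95% interval 54.4% to 96.0%). In the 7 libraries with at least 50 alpha reads, the leading alpha segment held 9.10% to 23.1% of the summed alpha FPKM. Across all 15 libraries with an alpha read, 10 different segments led.

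By family, Trav14 took 165 reads, Trav7 157, Trav9 139 and Trav13 100. Segments that define invariant T cells were nearly absent. Trav11, the alpha segment of invariant NKT cells, and its copy Trav11d had 0 reads in all 16 libraries. Trav1, the alpha segment of MAIT cells, had 1 read, in WT PBS 3. The variable exons of Trav11 and Trav11d were 99.7% identical, so an absence of counted reads cannot be read as an absence of RNA.

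The mouse alpha locus holds copies of whole blocks of segments, marked d and n in the symbols. The copies bear on what could be counted, and the variable exons of Trav7-4 and its copies show how small the differences can be. Capitals mark bases that differ from Trav7-4.
Trav7-4, chr14:53461447-53461738 (+): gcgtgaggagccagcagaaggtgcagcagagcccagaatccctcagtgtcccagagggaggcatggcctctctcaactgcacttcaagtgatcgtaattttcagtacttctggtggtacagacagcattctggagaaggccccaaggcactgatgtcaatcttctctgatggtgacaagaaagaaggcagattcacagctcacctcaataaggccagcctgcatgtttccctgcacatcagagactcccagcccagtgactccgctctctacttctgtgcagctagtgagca
Trav7d-4, chr14:52770101-52770392 (+): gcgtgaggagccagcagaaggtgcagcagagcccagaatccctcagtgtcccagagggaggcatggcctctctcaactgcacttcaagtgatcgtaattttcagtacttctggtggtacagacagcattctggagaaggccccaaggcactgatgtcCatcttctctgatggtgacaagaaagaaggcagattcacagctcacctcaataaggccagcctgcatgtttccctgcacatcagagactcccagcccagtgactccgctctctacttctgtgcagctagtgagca
Trav7n-4, chr14:53091584-53091875 (+): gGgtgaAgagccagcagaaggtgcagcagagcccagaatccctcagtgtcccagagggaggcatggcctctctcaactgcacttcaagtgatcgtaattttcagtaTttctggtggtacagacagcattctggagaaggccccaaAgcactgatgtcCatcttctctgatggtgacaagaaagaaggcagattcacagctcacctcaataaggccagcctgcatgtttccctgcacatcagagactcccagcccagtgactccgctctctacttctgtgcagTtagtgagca
Trav7d-4 differed from Trav7-4 at 1 of 292 bases and Trav7n-4 at 6. They had 27 and 21 reads, against 59 for Trav7-4. Reads between these positions could come from any of them, so values of single copies are uncertain.

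Across the alpha chain, 34 segments had another alpha segment with an identical variable exon. Of these, 27 had no read and 7 had 49 reads in all. Another 33 had a copy with at least 98% identity that was not identical, and 23 of them were detected, with 543 reads. Of the 41 with no copy at 98%, 32 were detected, with 405 reads. Identical copies thus made up 27 of the 46 undetected alpha segments. How the counting treated reads that match several places is not given in the sources used here, and its part in these zeros was not tested. Of the 46 segments with neither letter in the symbol, 37 were detected, with 650 reads. This compares with 10 of 34 (173 reads) among symbols marked d and 15 of 28 (174 reads) among symbols marked n. Outside the alpha chain no segment had a copy at 98%. The closest were 97.7% for delta, 95.8% for gamma and 91.8% for beta segments.

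**Figure D4:**
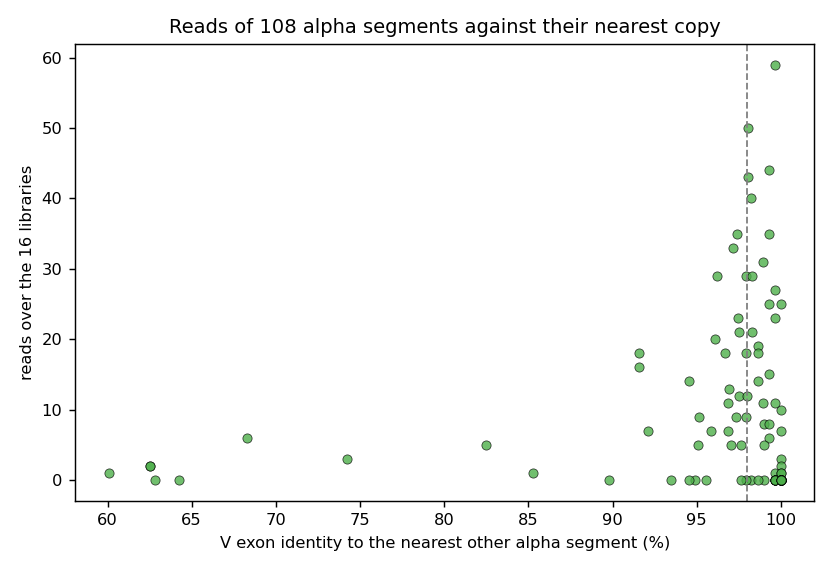
Reads over the 16 libraries (y axis) of each of the 108 alpha segments against the identity of its variable exon to the nearest other alpha segment (x axis, %); the dashed line is at 98%. The 34 segments at 100% include 27 with no read.

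Gamma and delta segments were few, and 1 segment led each chain. Trgv2 took 141 of the 226 gamma reads (62.4%) and led in 7 of the 11 libraries with a gamma read. Trdv4, a delta segment that receptors of epidermal gamma-delta T cells use, took 112 of the 142 delta reads (78.9%) and led in 8 of the 9 libraries with a delta read. They were the only segments of their chains that entered the test.

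Summed gamma levels were 0.511, 0.707, 5.22 and 0.837 FPKM in BdP cisplatin and 2.75, 5.05, 0.189 and 1.08 FPKM in BdP PBS libraries. They were 0, 0, 0.113 and 0 FPKM in WT cisplatin and 1.04, 0, 3.83 and 0 FPKM in WT PBS libraries. Summed delta levels were 1.22, 0.880, 3.08 and 1.75 FPKM in BdP cisplatin and 2.05, 2.82, 0 and 0 FPKM in BdP PBS libraries. They were 0, 0.276, 0.761 and 0 FPKM in WT cisplatin and 0, 0, 0.638 and 0 FPKM in WT PBS libraries. For both chains all 4 BdP cisplatin libraries lay above all 4 WT cisplatin libraries, while BdP PBS and WT PBS libraries overlapped. The delta constant gene Trdc did overlap, at 0.235 to 0.977 FPKM in BdP cisplatin and 0 to 0.287 FPKM in WT cisplatin libraries. It was below the summed delta level in each BdP cisplatin library. Whether the delta segment reads came from complete delta chains was not tested.

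Trgv2 measured 0.511, 0.707, 2.98 and 0.837 FPKM in BdP cisplatin tumours (8, 8, 31 and 9 reads), against 0 reads in each WT cisplatin tumour. Against 3 reads in each WT cisplatin library, the mean of 1.26 FPKM was 3.92-fold. This bound allows for unseen reads in the WT cisplatin libraries only, and not for the spread between BdP cisplatin libraries. Without BdP cisplatin 3 the mean was 0.685 FPKM and the bound 2.13-fold. In BdP PBS tumours it measured 0.809, 3.69, 0.0815 and 0 FPKM, against 1.04, 0, 2.23 and 0 FPKM in WT PBS tumours, where the 1.04 FPKM was 1 read. WT cisplatin was thus the only group without a Trgv2 read.

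Trdv4 measured 1.06, 0.880, 3.08 and 1.54 FPKM in BdP cisplatin tumours (15, 9, 29 and 15 reads), against 0, 0.276, 0.761 and 0 FPKM in WT cisplatin tumours. In BdP PBS tumours it measured 0.447, 2.18, 0 and 0 FPKM, against 0, 0, 0.441 and 0 FPKM in WT PBS tumours. The BdP cisplatin libraries were higher than all WT libraries of either treatment, and overlapped with the BdP PBS libraries.

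Other gamma segments were found in few tumours. Tcrg-V4 had 43 reads in 5 libraries, among them all 13 gamma reads of BdP PBS 4. Tcrg-V5, which epidermal gamma-delta T cells use, had 12 reads, all in BdP PBS 1. Tcrg-V6, used by gamma-delta T cells of mucosal and other tissues, had 8 reads, all in BdP cisplatin 3. Tcrg-V7, typical of gut intraepithelial T cells, had 8 of its 9 reads in WT PBS 3. Tcrg-V1 had 11 reads in 4 libraries. Among delta segments, Trdv2-2 had 21 reads in 4 libraries and all 7 reads of Trdv1 were in BdP PBS 1. Exons of Tcrg-V4, Trdv2-2 and Trdv5 overlap genes on the opposite strand, whose reads cannot be told apart without strand information.

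Across all genes, 11 segments (9 beta, Trgv2 and Trdv4) reached 1 FPKM in at least 4 libraries and were tested with limma. No segment passed a Benjamini-Hochberg adjusted p of 0.05 in any of the 5 comparisons. These p-values rest on the spread between libraries within groups, pooled over all 4 groups and drawn towards a trend across genes. WT PBS 1, with 76.9% mitochondrial reads, thus entered every comparison. For the libraries of a group the labels give no origin beyond a replicate number. The other segments were below this limit and were not tested, and those that passed did so through the libraries in which they were high. The 4 libraries in which Trdv4 reached 1 FPKM were 3 BdP cisplatin libraries and BdP PBS 2, and none was WT.

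In BdP cisplatin against WT cisplatin tumours 0 of the 11 segments were called, where 1.07% of all 12319 genes tested were called. At an unadjusted p below 0.05 there were 4 segments, namely Trdv4, Trbv16, Trgv2 and Trbv14. Trdv4 differed by 1.04 ± 0.35 (log2(FPKM + 1) difference ± SE, limma adjusted p = 0.207), Trbv16 by 1.14 ± 0.49 (adjusted p = 0.324), Trgv2 by 1.06 ± 0.48 (adjusted p = 0.349) and Trbv14 by 0.92 ± 0.43 (adjusted p = 0.358). The groups did not overlap for 3 of the 11, all higher in BdP cisplatin, namely Trdv4, Trgv2 and Trbv14. Among all genes tested, 6.41% did not overlap in that direction and 6.6% in the other, in which there was no segment. Trbv14 measured 0.511, 2.24, 0.770 and 0.496 FPKM in BdP cisplatin tumours, against 0 reads in each WT cisplatin tumour. Its mean was 2.34-fold that of 3 reads per library, a bound that likewise leaves out the spread between BdP cisplatin libraries. Without BdP cisplatin 2 that bound was 1.38-fold. The median difference over the 11 segments was 0.84, beside 0.01 over all genes, with 10 segments positive and 1 negative. Since Trdv4 passed the filter through no WT library, no support is drawn from these counts or the median. With Trgv2 and Trbv14 the fitted value depends on the added 1 FPKM.

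NK cell markers separated the same groups. The 5 markers Ncr1, Klrb1c, Klra8, Klre1 and Eomes summed to 6.12, 3.57, 25.9 and 4.86 FPKM in BdP cisplatin, against 0.520, 1.74, 2.50 and 1.30 FPKM in WT cisplatin tumours, without overlap. BdP cisplatin 3, the highest in NK markers, was also the highest of its group in Trgv2 and Trdv4. All 5 markers were above 0 in every library of both groups. The T cell receptor complex genes overlapped, at 18.7 to 144 FPKM in BdP cisplatin and 2.85 to 82.0 FPKM in WT cisplatin tumours. The part of NK cells in the segment values was not tested.

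**Figure D5:**
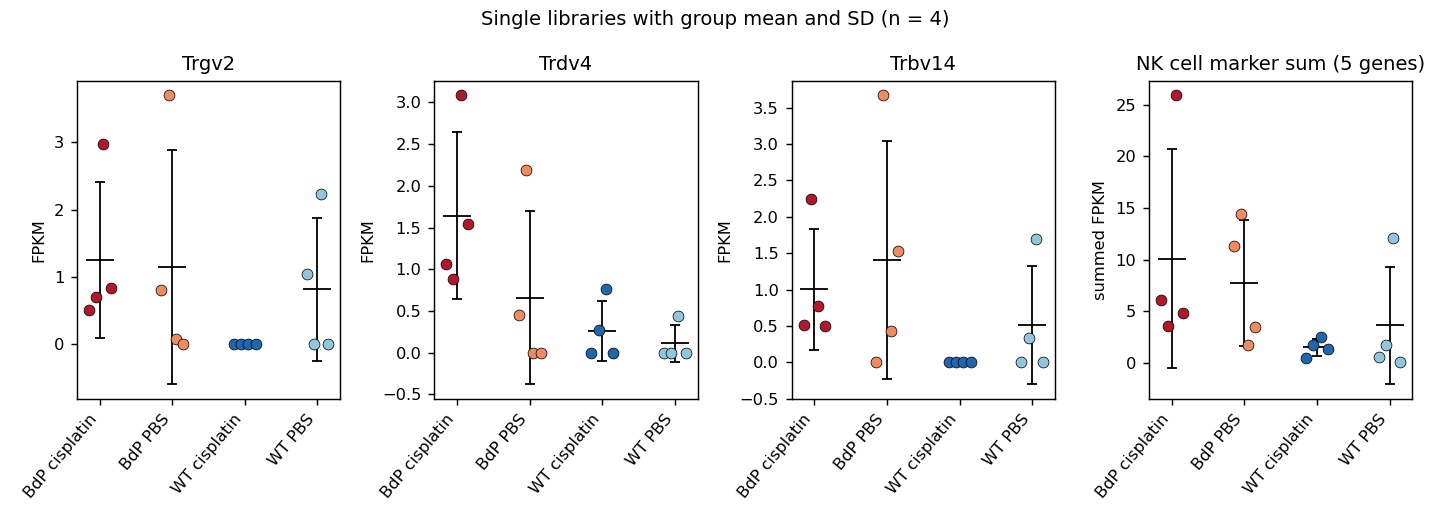
FPKM of Trgv2, Trdv4 and Trbv14 and summed FPKM of 5 NK cell markers (y axes) in single libraries (points) of the 4 groups, with group mean and SD (n = 4). In all 4 panels every BdP cisplatin library is above every WT cisplatin library.

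In BdP PBS against WT PBS tumours 0 of 11 segments were called, where 0.99% of all genes were called. By unadjusted p below 0.05 there was 1, Trbv12-2. It measured 1.63, 8.11, 0 and 2.20 FPKM in BdP PBS, against 0, 0, 0.305 and 0 FPKM in WT PBS tumours, a log2 difference of 1.47 ± 0.58 (limma adjusted p = 0.193). Because BdP PBS 3 had none, the groups overlapped. Trbv19 followed at 0.96 ± 0.55 and Trbv13-1 at 0.94 ± 0.53 (limma adjusted p = 0.338 and 0.337). The median over the 11 segments was 0.72, beside 0.01 over all genes, with 10 positive. Trbv2, at -0.29 ± 0.52, was the negative one. Trdv4 was again among the 11, so no support is drawn from this median or count. No segment separated the groups, where 3.36% of all genes were higher without overlap and 4.32% lower.

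Cisplatin against PBS gave no call in either genotype. In BdP tumours 0 of 11 segments were called, where 0.0% of all genes were called, and 1 had an unadjusted p below 0.05. This was Trdv4, at 0.78 ± 0.35 (limma adjusted p = 1.0), with overlapping groups. The next were Trbv2 at 0.63 ± 0.52 and Trbv16 at 0.63 ± 0.49. In WT tumours 0 of 11 were called, where 0.00812% of all genes were called, and 0 had an unadjusted p below 0.05. The smallest p belonged to Trgv2 (-0.68 ± 0.48, limma adjusted p = 0.701), Trbv19 (0.76 ± 0.55) and Trbv14 (-0.46 ± 0.43). Median differences over the segments were 0.26 in BdP and 0.13 in WT tumours, beside -0.00 and -0.01 over all genes. No segment separated cisplatin from PBS libraries. In BdP tumours 2.48% of all genes were higher without overlap and 1.94% lower, and in WT tumours 1.75% and 1.49%.

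No difference in cisplatin response between genotypes was called. The interaction, the response in BdP minus that in WT tumours, called 0 of 11 segments, where 0.0% of all genes were called, and 0 had an unadjusted p below 0.05. Its smallest p belonged to Trbv2 (1.14 ± 0.73, limma adjusted p = 0.837), Trbv19 (-1.16 ± 0.78) and Trgv2 (0.94 ± 0.68).

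None of the 4 constant genes tested, to which the variable segments of a chain are spliced, was called in any comparison. Trac measured 4.26, 30.5, 41.4 and 12.0 FPKM in BdP cisplatin, against 0.347, 1.57, 17.9 and 2.37 FPKM in WT cisplatin tumours. Its log2 difference was 2.17 ± 1.04 (limma adjusted p = 0.370), and it was 2.35 ± 1.04 in BdP PBS against WT PBS tumours (adjusted p = 0.236). Tcrg-C2, a gamma constant gene, differed by 0.72 ± 0.58 and 0.43 ± 0.58 in the same 2 comparisons. The groups overlapped for Trac, Trbc1, Trbc2 and Tcrg-C2 in both. Of 9 joining segments tested in BdP cisplatin against WT cisplatin tumours, 2 were called, beside 1.07% of all genes. These were Trbj2-1 at 2.48 ± 0.52 (limma adjusted p = 0.0333) and Trbj1-2 at 1.60 ± 0.31 (limma adjusted p = 0.0227). Of the 5 libraries in which each reached 1 FPKM, 4 were the BdP cisplatin libraries. Both thus passed the filter through the group in which they were high, and no support is drawn from the count. All 70 joining segments together had 25, 63, 83 and 39 reads in BdP cisplatin libraries 1 to 4. In WT cisplatin libraries 1 to 4 they had 0, 5, 55 and 12 reads. Both calls therefore rest on few reads.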

How the data were processed

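The authors deposited 1 table of FPKM per gene and library, for which HISAT2 2.0.5, featureCounts 1.5.0-p3, CASAVA and the build GRCm38 (mm10) are named, per the submitters' processing notes. The annotation release and the strand and multi-mapping settings are not given in the sources used here. Multiplied by gene length, 100% of values above 0 were whole multiples of 1 step per library (tolerance 0.1 read), which gave reads per gene. A segment was detected at an FPKM above 0. Position, symbol and biotype came from the table, and sequences and overlaps from GENCODE M21. Variable exons were aligned globally with Biopython.

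The 12319 genes that reached 1 FPKM in 4 or more libraries were fitted as log2(FPKM + 1) in limma 3.58.1 (R 4.3.3), with 4 group means over 16 libraries, a mean-variance trend and Benjamini-Hochberg adjustment over all genes, in 5 comparisons. FPKM are not counts, so no count model was used. A difference on this scale understates changes of low segments. Totals and detection counts are descriptions. Shares of reads have exact binomial intervals. The segments named were the highest by mean FPKM in each chain, the leader of each chain in each library, any called, the 3 smallest p per comparison and the segments of invariant or tissue-specific T cells. The members and lists were chosen with earlier results of these data known. Reads in genes ranged from 10051843 to 27055771 per library.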

Additional observations from a re-analysis of the deposited data

Results flagged for a closer look

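A library was singled out where it lay far from the other 3 of its group, by the gap to its neighbour relative to the range. Of 70 groups of values examined, 24 had such a library. Chance gives about 1 in 20 for normally distributed values, a rate that does not carry over to these skewed values with many zeros. In 8 of the 24 the other 3 libraries were at 0, where any read meets the criterion. Many of the values come from the same libraries and are not independent.

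WT PBS 3 was high in 11 of them. Its summed segment level was 34.93 FPKM (next 5.46), its beta level 19.31 FPKM, and it detected 49 segments (next 8). Trac measured 20.12 FPKM there. Single segments were Trbv2 at 4.261, Trbv16 at 1.671, Trbv3 at 0.8597, Trbv13-1 at 0.7481, Trbv19 at 0.5529, Trdv4 at 0.4405 and Trbv12-2 at 0.3048 FPKM.

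WT cisplatin 3 was high in another 9. Its summed level was 25.5 FPKM (next 5.25), with 7.252 FPKM for alpha and 17.38 FPKM for beta segments. The constant genes Trac, Trbc1 and Trbc2 measured 17.91, 21.91 and 26.22 FPKM there. Trbv20 measured 2.017, Trbv3 1.591 and Trbv2 0.8617 FPKM, each with no read in the other 3 WT cisplatin libraries.

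Among BdP libraries, BdP PBS 2 was high in Trbv13-2 (13.77 FPKM, next 0.9346) and Trbv3 (2.225 FPKM, next 0.2908). BdP cisplatin 2 was high in Trbv14 (2.241 FPKM, next 0.7699) and BdP cisplatin 3 in Trgv2 (2.981 FPKM, next 0.8369).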

How the results depend on the processing

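No segment was called in any comparison in the main test or in its 22 alternatives, in which 5 to 93 segments were tested and the smallest adjusted p was 0.0891. With detection at 1 FPKM or more in place of above 0, the mean number of detected segments was 9.75 in BdP cisplatin, 11.5 in BdP PBS, 3.25 in WT cisplatin and 2.75 in WT PBS tumours. At 3 reads or more it was 27.25, 24.25, 7.5 and 10.75 in the same order. Leaving out 1 library at a time gave 31.7 to 38.7, 22.0 to 33.3, 10.0 to 15.7 and 3.33 to 19.7 detected segments in BdP cisplatin, BdP PBS, WT cisplatin and WT PBS tumours. The summed log2 difference ran from 1.67 to 2.79 for BdP cisplatin minus WT cisplatin and from 1.19 to 2.91 for BdP PBS minus WT PBS. It ran from -0.54 to 1.18 for WT cisplatin minus WT PBS and from -0.32 to 1.12 for BdP cisplatin minus BdP PBS. Without the 3 libraries richest in mitochondrial reads these 4 differences were 3.10, 1.80, -0.91 and 0.38. With a pseudocount of 0.1 they were 2.36, 2.89, 0.96 and 0.43, as TPM 2.44, 3.18, 1.22 and 0.48, and as scaled reads 2.32, 2.77, 0.91 and 0.47. Without the d and n copies WT cisplatin minus WT PBS was 0.10.

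Same-numbered libraries did not deviate together (correlations of deviations from -0.613 to 0.415), so the numbers were not taken as pairs. With a replicate block 0 segments were called in each comparison, as without it. Few segment reads limit the comparisons, since 7 of 16 libraries had fewer than 100, and a fold between groups at or near 0 reads is not resolved. Low sequencing depth was not shared by all of these libraries. WT PBS 4 had 0 segment reads among 21496892 reads in genes, and WT cisplatin 1 had 18 among 22447984.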
